A study of Mus musculus with 8 samples.

Results

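The genes of the cytosolic ribosomal proteins were examined in whole brains of mouse fetuses at E15.5. They were chosen by symbol: protein-coding genes named *Rpl* or *Rps* with a number and at most 1 further letter and digit, together with *Rpsa*, *Rplp0*, *Rplp1* and *Rplp2*, without pseudogenes and without the *Rps6k* kinases. This rule found 83 genes among the 54752 listed, 51 of the large and 32 of the small ribosomal subunit. The strain is C57BL/6 in the labels and C57BL/6Slac in the study's methods. RNA of each brain was sequenced as its own oligo(dT)-selected library. The control group held 4 brains of dams left undisturbed (F36 and F37, both female, with the males M30 and M31). The stress group held 4 brains of dams exposed to chronic unpredictable mild stress during pregnancy (F34 and F35, both female, with the males M28 and M29). By the study's sample table the 4 brains of each group came from 1 litter, and an effect of the litter cannot be told apart from one of the condition. The p-values measure the spread between littermates only. The males carry the numbers M28 to M31 and the females F34 to F37, so sex cannot be told apart from anything that follows this numbering.

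A ribosome is built from ribosomal RNA and a single copy of nearly every ribosomal protein, so the genes of these proteins are read at high and closely matched levels. Most of their mRNAs start with a terminal oligopyrimidine tract, a run of C and T at the very start, through which mTOR signaling sets their translation. Growing and dividing cells, such as the progenitors of the fetal brain, depend on a large supply of them. A small number of paralogs, such as *Rpl22l1* and *Rps27l*, stand beside a main gene and may take its place in the ribosome.

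Start sites of 63 of the 83 genes were matched in the RefSeq promoter table (GRCm38.p6), with 75 entries. The windows below reach 15 bases to each side of the annotated start, and the longest run of C and T is in capitals. Of the genes called in any comparison 14 had an entry, of which 5 held a run of 8 or more bases and 9 a longest run of 2 to 7. All 5 of the first kind are shown, with *Rpl41* and *Rps3a1*, the 2 with the shortest runs, and with the paralogs *Rpl22l1* and *Rpl7l1*, which are compared with a parent gene. *Rps27l* has 2 entries and its upstream one is given.
Rplp2: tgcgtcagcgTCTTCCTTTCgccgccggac
Rps6: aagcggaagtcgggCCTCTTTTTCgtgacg
Rps10: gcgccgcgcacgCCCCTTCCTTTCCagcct
Rpl39: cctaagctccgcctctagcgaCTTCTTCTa
Rps27l: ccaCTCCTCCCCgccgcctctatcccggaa
Rpl41: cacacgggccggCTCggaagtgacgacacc
Rps3a1: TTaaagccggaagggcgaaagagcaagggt
Rpl22l1: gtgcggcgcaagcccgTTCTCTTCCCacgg
Rpl7l1: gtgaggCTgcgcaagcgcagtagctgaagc

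In *Rplp2*, *Rps6* and *Rps10* the run lay across the annotated start, whereas the windows of *Rps3a1* and *Rpl7l1* held no run longer than 2 bases. These windows lie at chr7:141447636-141447665 (+) for *Rplp2*, chr4:86857353-86857382 (-) for *Rps6*, chr17:27635230-27635259 (-) for *Rps10*, chrX:37085208-37085237 (-) for *Rpl39*, chr9:66946071-66946100 (+) for *Rps27l*, chr10:128549154-128549183 (-) for *Rpl41*, chr3:86142654-86142683 (-) for *Rps3a1*, chr3:28805493-28805522 (+) for *Rpl22l1* and chr17:46782642-46782671 (-) for *Rpl7l1*. A run of 8 or more pyrimidines was present in 37.3% of the 75 windows and in 12% of the 32851 windows of the whole table. The letters CTTTC stood on the transcribed strand within 50 bases of the start in 48.0% of the entries of these genes and in 12.8% of all entries, and the longer CTCTTTC, which holds CTTTC, in 18.7% and 1.37%. Over 300 bases and both strands, CCGGAAG, the core bound by ETS factors, was found in 36% of the entries against 8.86%, and AANATGGC, the core bound by YY1, in 22.7% against 6.05%. A match of letters is a description of the sequence and not a binding site.

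The library totals lay between 25320109 and 29105710 counts. Of the 83 genes, 80 passed the filter on low counts that edgeR applies (minimum count 10, by group). The other 3 were *Rpl10l*, *Rpl3l* and *Rpl39l*, paralogs known from testis or muscle. *Rpl10l* had 0 counts in each of the 8 brains, which allows up to 3 counts a library. *Rpl3l* and *Rpl39l* had between 0 and 3 counts each. For same-sex littermates the chi-square per tested gene lay between 1.97 and 2.98, above the value of 1 that counting noise alone would give, so that no library was a second copy of another. For littermates of opposite sex it lay between 4.08 and 6.28.

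Levels per length were compared as TPM, which divides counts by exon length and scales each library to the same sum. Exon length here is that of all annotated exons of a gene, which can exceed the main transcript. Both were 499 bases in *Rplp1*, but they were 1168 and 582 bases in *Rpl41* and 4685 and 774 in *Rps19*. The order of levels below therefore depends on the annotation. Together the 83 genes took between 5.53% and 5.88% of TPM and between 2.40% and 2.59% of counts in the 8 brains. The highest level was that of *Rplp1*, a protein of the acidic stalk that recruits elongation factors, with 2667 TPM ± 164 (SD, n = 8). *Rps15*, a protein of the small subunit near the decoding site, followed with 2101 TPM ± 61.4, then *Rplp0*, the base of the stalk, with 2092 TPM ± 43.8, and *Rps3a1* with 1901 TPM ± 65.1. *Rps15* and *Rplp0* differed by less than their spread, and *Rplp1* stood above both by more than its own.

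Most of the genes lay in a narrow band, with 68 of 83 between 200 and 1500 TPM. The tested genes with the lowest levels were *Rps10* with 8.73 TPM ± 1.16, *Rpl24* with 10.9 TPM ± 1.53, *Rpl13a* with 71.8 TPM ± 3.38 and *Rpl22l1* with 72.0 TPM ± 4.54. In all 4 the annotation overlaps other genes. Overlapping annotation covers 28.7% of the exon bases of *Rps10* (the read-through gene *RPS10-NUDT3* and the antisense *Gm15420*), 47.0% of those of *Rpl24* (*Gm28037*), 35.4% of those of *Rpl13a* (mostly *Gm45713*) and 7.99% of those of *Rpl22l1* (the antisense *Gm33051*). In addition, of all windows of 100 bases in the main transcript, 47.7%, 80.1%, 55.2% and 50.8% in this order occur in the transcript of at least 1 other gene. By the defaults of the counting program a read pair that fits more than 1 gene or place is not counted, so the levels of these genes are uncertain. Such windows were present in 75 of the 83 genes, and made up over 50% of the transcript in 31. Overlapping annotation covers over 10% of the exon bases in 15 genes. Neither trait was confined to low levels. *Rpl23a*, with 62.3% of its exon bases shared, stood at 741 TPM, and *Rps27*, with 98.4% of its windows in other genes, at 631 TPM. The 300 listed pseudogenes named after these genes held between 2133 and 2727 counts per brain in sum, between 0.31% and 0.368% of the counts of the genes themselves.

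**Figure D1:**
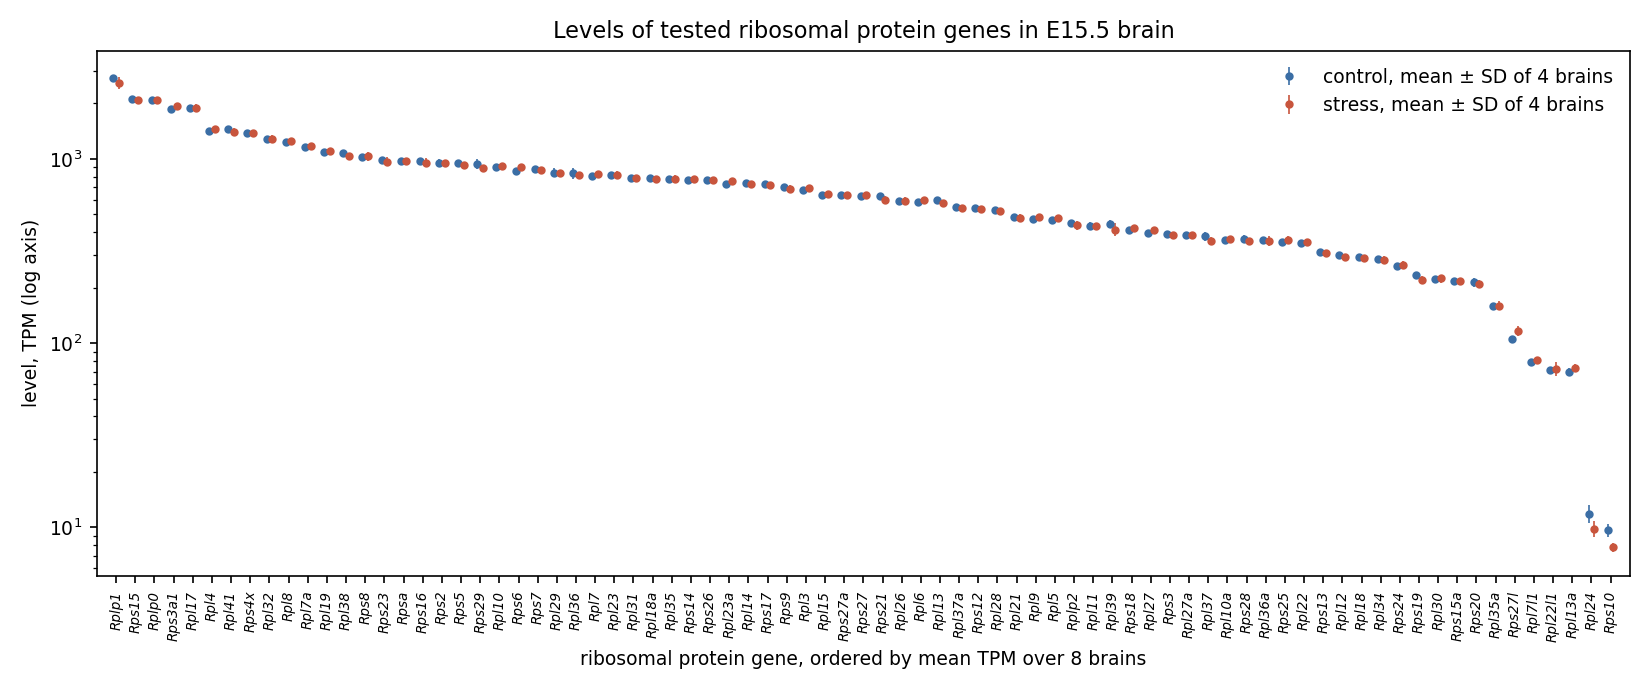
Level of the tested ribosomal protein genes, 1 of the 80 not shown, in TPM on a log axis, ordered from highest to lowest, with the mean and SD of the 4 control brains (blue) and the 4 stressed brains (red). The levels of both groups nearly coincide, *Rplp1* is highest at 2667 TPM over all brains, and *Rpl24* and *Rps10* stand apart at the low end near 10.9 and 8.73 TPM.

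The first question was whether the ribosomal protein genes as a whole differed between stressed and control brains. Over all 8 brains few of them did. None of the 80 was called higher and 2 were called lower at an adjusted p under 0.05 (edgeR's quasi-likelihood test with sex as covariate, Benjamini-Hochberg over 17865 genes), where 6.49% of all tested genes were called higher and 7.27% lower. At an unadjusted p under 0.05 in the same test, 2 were higher and 5 lower, beside 2361 and 2439 of all 17865 genes. DESeq2 called 0 higher and 1 lower, beside 748 and 911 of all 17865 genes. The log2 fold change (Log2FC, stress vs. control) was positive in 39 and negative in 41, with a median of -0.00021 against 0.0015 over all genes. It lay within 0.1 of 0 in 76 of the 80. The median was 0.00 for the large subunit and -0.01 for the small subunit, and the ratio of small to large subunit counts stayed between 0.694 and 0.7 in all brains.

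*Rps10*, a protein of the small subunit near the mRNA entry side, was the first of the 2 called genes. Its level was 6.01, 5.15, 6.17 and 5.8 CPM (counts scaled to the library total by TMM) in control F36, F37, M30 and M31, and 4.89, 4.38, 4.46 and 4.94 CPM in stressed F34, F35, M28 and M29. All 4 stressed brains lay below all 4 control brains, the only one of the 80 genes with groups apart in this direction, where 8.22% of all tested genes were. None had all stressed brains above all control brains, where 8.2% of all tested genes did. The Log2FC was -0.31 (SE 0.094, adjusted p = 0.0294), with 111 to 170 counts per brain on exons of which a part is shared with other genes. It was called under 9 of 16 alternatives, with an adjusted p between 0.0258 and 0.117. The call was lost under DESeq2 and without control F36, M30 or M31 or stress F35, M28 or M29.

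*Rpl39*, an X-linked protein of the exit tunnel of the large subunit, was the second. The control brains gave 156, 161, 168 and 173 CPM in F36, F37, M30 and M31, and the stressed brains 145, 138, 166 and 165 CPM in F34, F35, M28 and M29. The stressed females were lowest, and the stressed males lay within the range of the control brains. The Log2FC was -0.10 (SE 0.030, adjusted p = 0.0273). It was called under 11 of 16 alternatives, with an adjusted p of 0.18 without the sex covariate, and not called without control F36, control F37, stress F34 or stress F35.

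Of the genes that did not pass the test, the largest positive values were Log2FC 0.14 (adjusted p = 0.0734) for *Rps27l*, a p53-inducible paralog, 0.08 (adjusted p = 0.0913) for *Rps6*, the phosphorylated target of S6 kinase, and 0.08 (adjusted p = 0.237) for *Rpl13a*. *Rpl23a* had 0.06. The largest negative ones after *Rps10* and *Rpl39* were -0.27 (SE 0.127, adjusted p = 0.167) for *Rpl24*, with 62 to 98 counts per brain, -0.08 (adjusted p = 0.175) for *Rplp1*, and -0.08 (adjusted p = 0.118) for *Rps19*, known from Diamond-Blackfan anemia. With offsets for exon length, *Rps6* and *Rps27l* were called higher, at an adjusted p of 0.0197 and 0.0273.

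**Figure D2:**
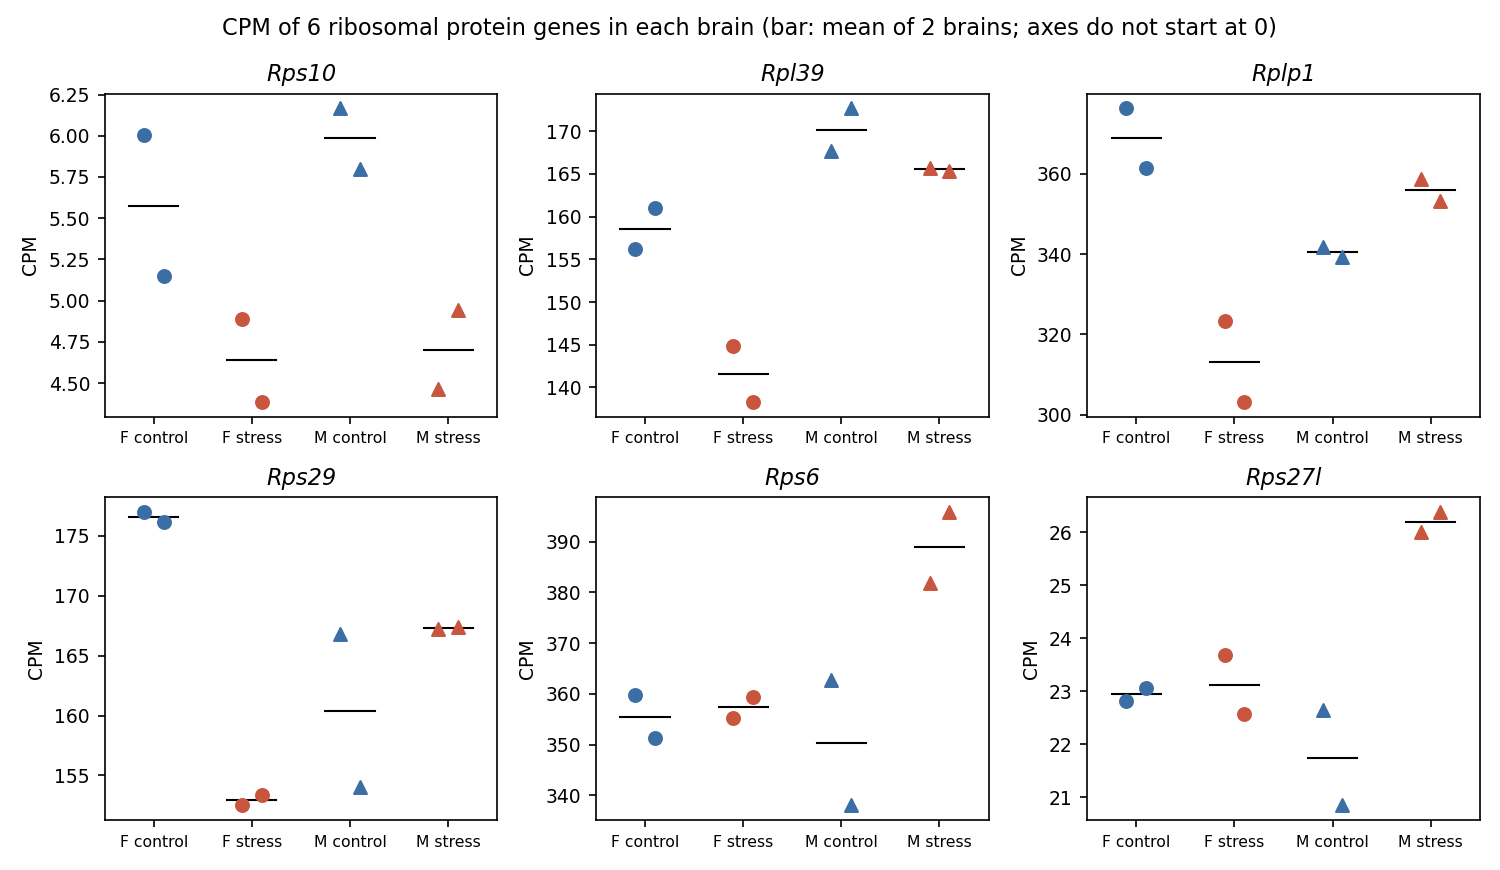
CPM of 6 ribosomal protein genes in each of the 8 brains, by sex and group (circles, females; triangles, males; blue, control; red, stress; bar, mean of 2 brains). *Rps10* is lower in all stressed brains, *Rpl39*, *Rplp1* and *Rps29* are lowest in the stressed females, and *Rps6* and *Rps27l* are highest in the stressed males, with 26.0 and 26.4 CPM for *Rps27l*.

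The near-zero median over both sexes was made of opposite values in females and males. Of the 80 genes, 76 had a negative Log2FC in the comparison of 2 stressed with 2 control females and 76 a positive one in that of the males. The median was -0.08 in females and 0.07 in males, against 0.0014 and 0.0022 over all genes. In females 10 of 80 were called lower and 0 higher, where 2.27% of 17969 tested genes were called lower. In males 8 of 80 were called higher and 0 lower, where 3.68% of 18057 were called higher. None was called in both sexes. These counts depend on single libraries and on the tool. DESeq2 called 3 lower in females, where it called 81 of 17969 tested genes lower. In males it called 2 higher, where it called 132 of 18057 higher. With 1 brain left out, calls changed among these genes and over all genes. The median Log2FC of the 80 genes then lay between -0.084 (without stress F34) and -0.071 (without control F36) in females. In males it lay between 0.049 (without control M31) and 0.10 (without control M30). The lone brain left in a group was then assumed to vary like the other pair.

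Among the genes called in females the largest fall was that of *Rplp1*. It measured 376 and 361 CPM in the control females against 323 and 303 CPM in the stressed females, and 342 and 339 CPM in the control males against 359 and 353 CPM in the stressed males. The Log2FC in females was -0.24 (SE 0.041, adjusted p = 0.000846), and that in males 0.06 (adjusted p = 0.29). *Rps29*, a small zinc-binding protein of the small subunit, measured 177 and 176 CPM in the control females and 152.5 and 153.4 CPM in the stressed females (Log2FC -0.21, SE 0.042, adjusted p = 0.00282). *Rpl37*, also a zinc-binding protein, measured 174 and 172 against 149 and 153 CPM (Log2FC -0.20, adjusted p = 0.00476). In all 3 genes the stressed females were the lowest or, for *Rps29* and *Rpl37*, level with control M31, which had 154 and 150 CPM.

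The other 7 genes called lower in females were *Rps19* (Log2FC -0.18), *Rpl39* (-0.16), *Rps21* (-0.16), *Rpl41* (-0.15), *Rplp2* (-0.15), *Rps28* (-0.14) and *Rps16* (-0.14), with adjusted p between 0.0126 and 0.0472. They fell in both subunits, with 5 of the 10 in the small and 5 in the large one. *Rplp1*, *Rps29* and *Rpl37* were the 3 that DESeq2 called. With offsets for exon length *Rplp1*, *Rps29*, *Rpl37* and *Rps19* were called.

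Among those called in males the largest rise was that of *Rps27l*, with 22.6 and 20.8 CPM in the control and 26.0 and 26.4 CPM in the stressed males (Log2FC 0.27, SE 0.067, adjusted p = 0.00875). In females it measured 22.8 and 23.1 against 23.7 and 22.6 CPM, so that only the stressed males stood apart from the other 6 brains. *Rps6* measured 363 and 338 against 382 and 396 CPM in males (Log2FC 0.15, SE 0.037, adjusted p = 0.00875). Also called higher were *Rpl23a* (0.14), *Rps25* (0.13), *Rpl27* (0.12), *Rps3a1* (0.12) and *Rpl30* (0.12), with adjusted p between 0.0226 and 0.0391. *Rps6* was among the 2 genes that DESeq2 called. Overlapping annotation covers 62.3% of the exon bases of *Rpl23a* and 24.8% of those of *Rps25* and of *Rpl30*.

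**Figure D3:**
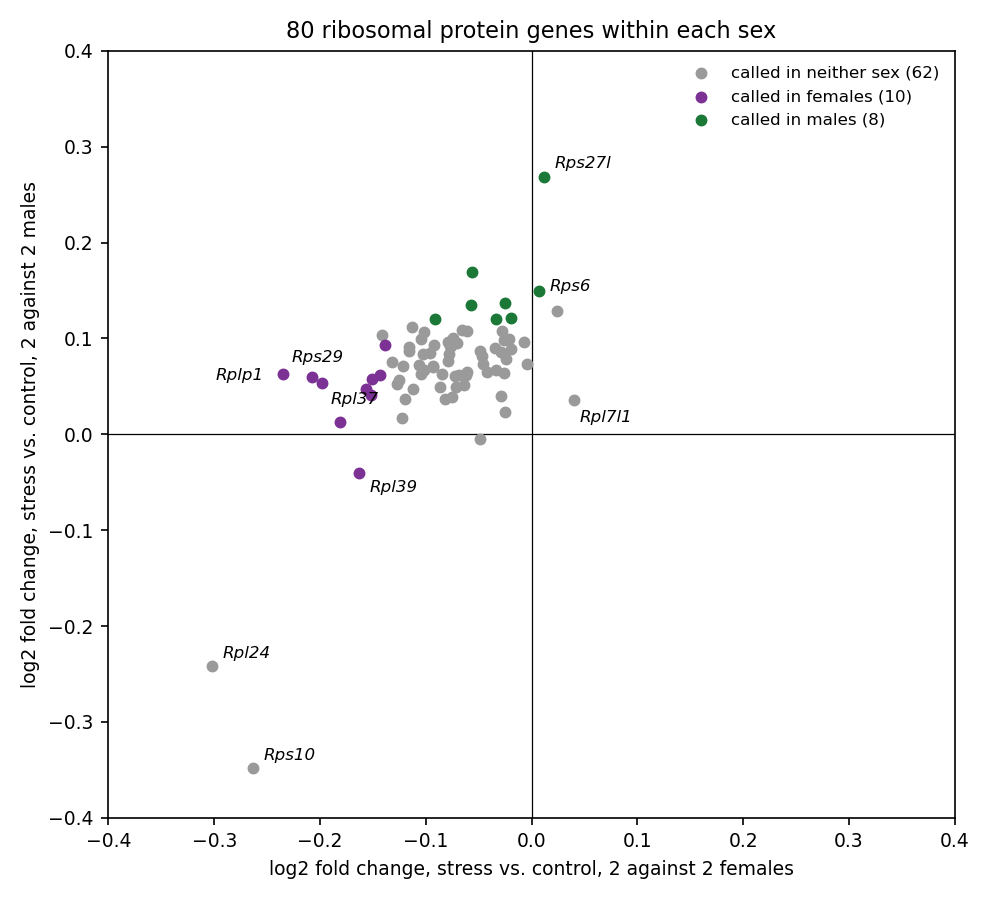
Log2FC of the 80 tested genes in females (x axis) against that in males (y axis), each from 2 stressed and 2 control brains. Of the 80 points, 76 lie left of 0 and 76 above 0; purple marks the 10 genes called in females, green the 8 called in males, and *Rps10* and *Rpl24* are negative in both sexes.

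The difference between the sexes was tested as a sex by stress interaction over all 8 brains. The interaction (Log2FC in males minus that in females) was positive in 78 of 80 genes, with a median of 0.16 against -0.0021 over all genes. In edgeR's quasi-likelihood test with Benjamini-Hochberg adjustment none of the 80 was called, and 0.0056% of all tested genes (1 gene) were. At an unadjusted p under 0.05 there were 69 of the 80, all positive, beside 595 positive and 533 negative among all tested genes. *Rplp1* came closest with an interaction of 0.30 (SE 0.052, adjusted p = 0.0623), followed by *Rps29* with 0.27 (adjusted p = 0.26). For *Rplp1* the adjusted p ranged from 4.08e-06 to 0.868 over 15 alternatives, of which 3 called it, DESeq2's Wald test among them (adjusted p = 0.000709). Without the filter on low counts 10 of the genes were called. The 2 negative values were -0.08 for *Rps10* and -0.0027 for *Rpl7l1*.

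The stressed females lay below the control females in 67 of the 80 genes, where 23.6% of all tested genes did. The stressed males lay above the control males in 64, where 25.7% did. Both held in 53 of the 80, against 2.62% of all tested genes. The 80 genes moved as a block from brain to brain, with a median Pearson r of 0.70 between pairs of genes over the 8 libraries, so they are not 80 separate observations. In control F36 66 of them lay above their mean over all brains, in F37 55, in M30 45 and in M31 4. In stressed F34 and F35 it was 3 and 7, and in stressed M28 and M29 74 and 76. Control M31 thus resembled the stressed females in these genes and not the other control male. *Rps10* (r = 0.025 with the median of the 80), *Rpl36* (0.18) and *Rpl24* (0.19) followed the block least.

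The share of all counts held by the 83 genes showed the same order. It was 2.55% and 2.51% in the control females and 2.41% and 2.40% in the stressed females. In males it was 2.50% and 2.40% in the control and 2.57% and 2.59% in the stressed brains. The difference was -0.123 percentage points in females and 0.130 in males. Without control M30 or control M31 the difference in males was 0.178 or 0.0811. In bulk tissue, fewer cells with a high content of these mRNAs and less of the mRNA per cell cannot be told apart.

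Other genes with a short exon length moved in the same order. Nuclear genes with under 2000 exon bases, without the ribosomal protein genes, held 7.57% and 7.39% of the remaining nuclear counts in the control females, 7.23% and 7.21% in the stressed females, 7.37% and 7.23% in the control males and 7.45% and 7.52% in the stressed males. When a trend with exon length was removed from each library, the median interaction over the 80 genes was 0.09, with 76 positive. At an unadjusted p under 0.05 in edgeR's quasi-likelihood test there were 33 of the 80, against 69 without the offsets. The smallest adjusted p of the 80 was 0.848 in that test. The median Log2FC with these offsets was -0.04 in females, with 4 of 80 called lower, where 339 of 17969 tested genes were. In males it was 0.05, with 4 of 80 called higher, where 681 of 18057 tested genes were. Among the 80 genes themselves, Spearman's rho between the interaction and the length of the main transcript was -0.287, and the median interaction was 0.18 for the 25 genes under 700 bases and 0.13 for the 23 of 1100 bases or more. The offsets used the length of all annotated exons of a gene. The part of transcript length itself in the result was not tested.

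**Figure D4:**
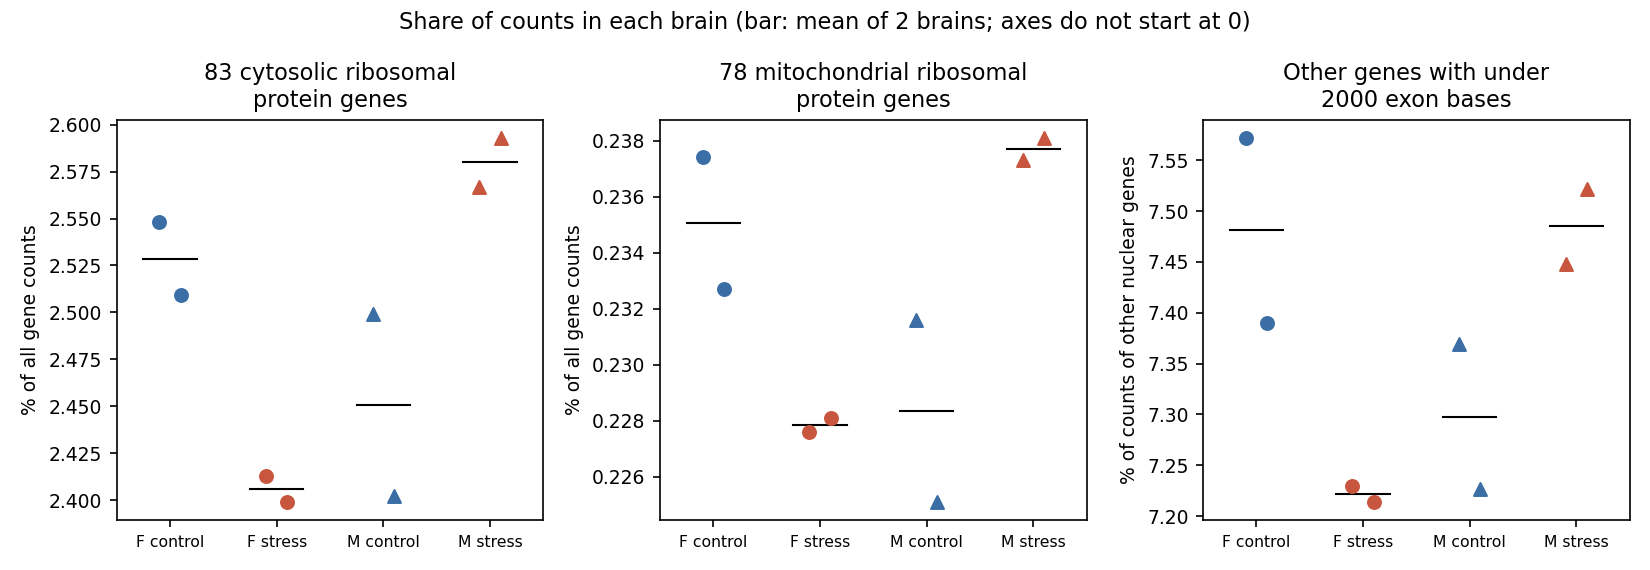
Share of counts in each brain for the 83 cytosolic ribosomal protein genes, the 78 mitochondrial ribosomal protein genes and other nuclear genes with under 2000 exon bases (circles, females; triangles, males; blue, control; red, stress; bar, mean of 2 brains). In the left panel the stressed females lie at 2.41% and 2.40% and the stressed males at 2.57% and 2.59%, and the other panels show the same order of group means within each sex.

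The mitochondrial ribosomal proteins, a separate set of nuclear genes for the ribosome inside mitochondria, were the nearest comparison. Of 78 such genes 77 were tested. Over all brains 2 were called higher and 0 lower, *Mrpl13* with a Log2FC of 0.15 and *Mrpl2* with 0.14. These are 2.6% and 0% of the tested genes of the set, below the 6.49% and 7.27% of all tested genes. In females the Log2FC was negative in 58 of 77 (median -0.05), in males positive in 66 (median 0.06), and the interaction was positive in 69 (median 0.11). The median interaction of the cytosolic set was larger at 0.16, a difference that was not tested.

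For 4 paralogs the ratio to the parent gene, as log2 of counts per exon length, could be followed in every brain. *Rps27l* against *Rps27* was -2.53, -2.54, -2.56 and -2.65 in control F36, F37, M30 and M31 and -2.47, -2.49, -2.44 and -2.36 in stressed F34, F35, M28 and M29. All stressed brains lay above all control brains, with a difference of 0.13 (exact permutation test, two-sided, p = 0.0286, the smallest that 4 against 4 can give, adjusted over 4 pairs p = 0.114). Nearly all of the *Rps27* transcript, 98.4% of its windows, also occurs in other genes, and none of that of *Rps27l*. *Rpl22l1* against *Rpl22* differed by -0.01 (exact permutation p = 0.971) and *Rpl7l1* against *Rpl7* by -0.0010 (exact permutation p = 0.971). The pseudogene *Rps4l* against *Rps4x* differed by -0.08 (exact permutation p = 0.4). *Rpl36al* had 6 to 15 counts and was set aside in this comparison, as were *Rpl3l*, *Rpl10l* and *Rpl39l*.

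The sex term of the fit over both groups (male vs. female) was positive in 68 of the 80 genes, with a median of 0.03. It pools groups that went opposite ways. The share of counts of the 83 genes was lower in both control males than in both control females, and higher in both stressed males than in both stressed females. One was called, *Rpl39* (male vs. female 0.16, SE 0.030, adjusted p = 0.0182), where 0.0336% of tested genes were called higher in males. It measured 138 to 161 CPM in the 4 females and 165 to 173 CPM in the 4 males. The call was lost without control F36, stress F34, stress F35, stress M28 or stress M29. The other X-linked genes were not called, with 0.08 (adjusted p = 0.841) for *Rpl36a*, 0.03 (adjusted p = 0.91) for *Rps4x* and 0.02 (adjusted p = 0.946) for *Rpl10*.

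Further genes of the pathway came from fixed lists. The fusion gene *Fau*, whose product carries a ribosomal protein behind a ubiquitin-like domain, was not called over all brains (Log2FC -0.06, adjusted p = 0.209). It measured 254 and 248 CPM in control females, 228 and 223 in stressed females, 243 and 227 in control males and 238 and 239 in stressed males, and it was called lower in females (Log2FC -0.15, adjusted p = 0.0248). Of 60 genes of ribosome biogenesis 6 (10%) were called higher and 2 (3.33%) lower over all brains, where 6.49% and 7.27% of all tested genes were, with a median Log2FC of 0.03. *Dkc1*, the pseudouridine synthase of small nucleolar RNPs, had a Log2FC of 0.18, *Nop58*, a core protein of box C/D particles, 0.14, *Wdr43* 0.14, and *Nop10*, a partner of *Dkc1*, -0.13. Of 18 translation factors and related genes with pyrimidine-tract mRNAs, 5 (27.8%) were called higher and 0 lower, with a median of 0.02, led by *Npm1* (0.13), *Hnrnpa1* (0.11) and *Eif4b* (0.08). *Npm1* is also on the list of ribosome biogenesis. In females 9 of the 18 values were positive (median -0.01), and in males 17 (median 0.06). A list of 17 genes held regulators of pyrimidine-tract mRNAs and of mTOR signaling. Of these 1 (5.88%) was called higher, *Tia1* (0.10), which binds such tracts. Called lower were 3 (17.6%), and the median was -0.02. The 3 were *Myc* (-0.24), a driver of ribosome biogenesis, *Zfp692* (-0.22) and *Mycn* (-0.11). The list thus reaches beyond genes that act on pyrimidine tracts. Of 7 tested host genes of small nucleolar RNAs, *Snhg12* was called lower (-0.17), which is 14.3% of the list, and the median was -0.07.

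Markers of cell state and cell type moved over the same brains. The calls of each marker list, here and in the next paragraph, stand beside 6.49% higher and 7.27% lower over all tested genes. Of 10 proliferation markers 9 were called higher, with 0.26 for *Ccnb1* and 0.24 for *Top2a*, and their summed level was 701 to 747 CPM in control and 780 to 881 CPM in stressed brains. Of 5 markers of intermediate progenitors 4 were called higher (*Neurog1* 0.46, *Eomes* 0.25), and of 10 of radial glia 4 higher (*Nes* 0.14, *Pax6* 0.14). The other 6 of the radial glia list had negative values and were not called, and its median was -0.03. Of 13 neuron markers 9 were called lower (*Syp* -0.18, *Syn1* -0.18), and of 6 endothelial markers 4 lower (*Flt1* -0.41, *Kdr* -0.29). Of 7 microglia markers none was called.

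In 4 of these lists the median Log2FC had the same sign in both sexes. The median Log2FC in females and males was 0.15 and 0.24 for proliferation, 0.22 and 0.27 for intermediate progenitors, -0.13 and -0.10 for neurons and -0.17 and -0.19 for endothelium. That of the radial glia list was -0.04 in females and 0.04 in males, opposite in sign as in the ribosomal protein genes. Of 9 tested erythroid markers 2 were called higher, *Hba-x* (1.09) and *Hbb-y* (0.84), embryonic globins, and 1 lower, *Hbb-bs* (-0.14). Their summed level was 413 to 415 CPM in control and 373 to 389 CPM in stressed females, and 366 to 379 CPM in control and 381 to 387 CPM in stressed males, the same order as that of the ribosomal protein genes. The microglia list held 35.2 to 35.3 and 29.9 to 34.3 CPM in females and 31.7 to 32.7 and 33.5 to 34.7 CPM in males, also in that order. The median interaction was 0.27 for microglia and 0.14 for erythroid markers, beside 0.16 for the ribosomal protein genes. It was positive in 7 of 7 microglia, 9 of 9 erythroid, 9 of 10 proliferation and 9 of 10 radial glia markers. Of the other lists, 4 of 5 intermediate progenitor, 8 of 13 neuron, 3 of 6 endothelial and 1 of 5 choroid plexus markers had a positive interaction. No marker was called in the interaction. Of 5 choroid plexus markers *Ttr* and *Kcne2* were called higher, whereas *Folr1* (-0.20), *Kl* (-0.37) and *Aqp1* (0.05) were not called. *Ttr* was highest in stressed F34 with 29.9 CPM, and stressed M29 with 0.656 CPM lay below 3 of the 4 control brains. The list had a summed level of 2.26 to 10.4 CPM in control and 2.52 to 33.0 CPM in stressed brains. No marker on these lists was at 0 in every brain. The part of any of these cell types in the values of the ribosomal protein genes was not tested.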

How the data were processed

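RNA of 8 E15.5 brains was analysed, 4 per group. Per the labels and methods, the authors trimmed read pairs with Trim Galore, aligned them to mm10 with TopHat2 2.1.1 and used featureCounts 1.6.3 to count pairs over GENCODE exons by gene. The deposited values are raw counts per gene, with no normalization. TopHat2 kept reads with several places up to a stated limit. The counting used no strand, and no option for such reads is stated for it. Of 54752 identifiers, 54723 were matched to a symbol by identifier. The members and lists were chosen with earlier results of these data known.

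From the counts, genes were kept by filterByExpr (minimum count 10), scaled by TMM (factors 0.9956 to 1.002) and tested with the quasi-likelihood test of edgeR 4.0.16 in R 4.3.3, with sex and condition in the model and Benjamini-Hochberg adjustment over all tested genes. The same test was run within each sex and for the interaction. The SE is the log2 fold change divided by the root of the F value. The alternatives were DESeq2 1.42.0 (Wald test), 3 other scalings, TMM without the ribosomal protein genes, no filter, no sex covariate, exon length offsets, another member list and each brain left out in turn. Those within sex, and the offsets and the TMM without these genes for sex and the interaction, were chosen after seeing the data. Paralog ratios were compared by exact permutation. With 4 brains against 4 the smallest p is 0.0286. The fits were tested on simulated data. Named were all called genes, the 5 largest rises and falls, the 4 highest and lowest levels, X-linked genes, paralog pairs, *Fau* and genes left out by the filter, and of each list up to 4 called genes with the largest change (2 for marker lists). *Rpl36*, outside this rule, was chosen after its values were seen. In total 25320109 to 29105710 counts per library were used. Genome sequence and the study's other animals were not used here, and some genes that this rule takes are not reported here.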

Additional observations from a re-analysis of the deposited data

Results flagged for a closer look

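The share of counts on the 83 ribosomal protein genes moved in opposite directions in the sexes. It differed by -0.123 percentage points between stressed and control females and by 0.130 percentage points between stressed and control males, with both stressed females below both control females and both stressed males above both control males. The difference between the sexes in this share was not tested, and 2 brains against 2 can give no exact permutation p below 0.333. The share of the other genes with under 2000 exon bases, given with the shares above, had the same order of group means.

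*Rpl22l1*, the paralog of *Rpl22*, was at 38.7 CPM in control M31, far from the 35.95 to 36.15 CPM of the other 3 control brains. Its gap to the nearest of them was 0.927 of the range of the group. This was 1 of 68 groups of 4 that were examined, of which chance flags about 1 in 20.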

How the results depend on the processing

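No paired analysis was possible because the groups share no replicate number. The cause of the changes below was not tested. Calls over all genes, 1160 higher and 1298 lower, became 748 higher under DESeq2, 295 higher and 407 lower in females alone, 664 higher in males alone, and 736 to 1057 higher and 854 to 1308 lower with 1 brain left out. Among the ribosomal protein genes the 0 higher and 2 lower calls became 2 higher with exon length offsets, 1 lower under DESeq2 or without the sex covariate, 4 lower without the filter, 8 higher and 0 lower in males alone, 10 lower in females alone, and 0 to 1 higher and 0 to 4 lower with 1 brain left out.

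By sex, all genes gave 23 higher and 41 lower calls without the filter and 5 to 15 lower with 1 brain left out, when *Rpl39* gave 0 or 1 call. For the interaction, 1 higher call over all genes became 2 under DESeq2, 21 higher and 16 lower without the filter, and 0 to 5 higher and 0 to 4 lower with 1 brain left out. The 0 calls among ribosomal protein genes became 1, 10 and 0 to 1. Within sex, exon length offsets gave 4 lower in females and 4 higher in males, DESeq2 3 and 2, and leaving out 1 brain 0 to 17 lower in females and 0 to 19 higher in males.

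With 1 brain left out, the difference in share in males lay between 0.0811 and 0.178 percentage points, the log2 ratio difference of *Rpl22l1* to *Rpl22* between -0.0493 and 0.0351, and that of *Rpl7l1* to *Rpl7* between -0.0193 and 0.0230. For the 32 named genes, 576 fold changes under alternatives were computed. In 483 direction and call were kept, in 25 a call was gained, in 15 one was lost, and in 53 the sign changed with no call in either fit. Low counts limit the precision of *Rps10* and *Rpl24*, and *Rpl3l*, *Rpl10l* and *Rpl39l* did not pass the filter.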
